A study of Mus musculus with 4 samples.

Results

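Galectins are sugar-binding proteins, and the 7 genes described here are Lgals1, Lgals2, Lgals3, Lgals4, Lgals8 and Lgals9 together with Lgals3bp. The last encodes a secreted glycoprotein that galectin-3 binds and is not itself a galectin, but all 7 are called galectin genes below. They were taken by name, with every probe set that carried 1 gene symbol, which gave 10 of the 20380 such probe sets and 7 of 12393 named genes. The cells were macrophages sorted by flow cytometry from gastrointestinal stromal tumours (GIST) of GIST mice, a mouse model of this tumour whose allele is not given in the sources used here. One group of tumour-bearing mice was the vehicle control, and the other drank water with 600 mg/L of imatinib, an inhibitor of Kit and related tyrosine kinases. Treatment lasted 2 weeks. Cells of 8 mice were pooled in each group, and each pool was run on 2 Affymetrix arrays from 200 ng of RNA. The series text calls the arrays duplicates of a pool and the sample titles call them biological replicates, so the p-values cover no more than the difference between arrays of a group, which can be purely technical.

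Galectins bind beta-galactosides, above all N-acetyllactosamine units on branched glycans, and are made in the cytosol and released without a signal peptide. Outside the cell they cross-link glycoproteins such as integrins, CD44 and CD45, and inside it several of them bind the glycans that damaged endosomes and lysosomes expose. Galectin-3 was first described as the macrophage surface antigen Mac-2, galectin-4 and galectin-2 are known as products of the gut epithelium, and galectin-1 and galectin-9 are known for restraining T cells.

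All 7 genes passed the filter on dim signals, and 2 of them fell with imatinib while none rose. Lgals4 fell 5.35-fold in mean signal and Lgals3 fell 1.24-fold, while Lgals1, Lgals2, Lgals8, Lgals9 and Lgals3bp did not pass the test. The test was limma on log2(signal + 32) over 8156 genes, each represented by its brightest probe set, and a gene was called at a Benjamini-Hochberg adjusted p under 0.05. Of all tested genes 8.85% were called lower and 6.74% higher, so that 15.6% were called in all. The median log2 difference, imatinib minus vehicle, was -0.05 over the 7 genes and -0.02 over all tested genes. With every probe set as its own row, 2 of the 10 galectin probe sets were called lower and none higher, where 7.48% and 6.05% of 12488 probe sets were called. These were the single probe sets of Lgals3 and Lgals4.

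**Figure D1:**
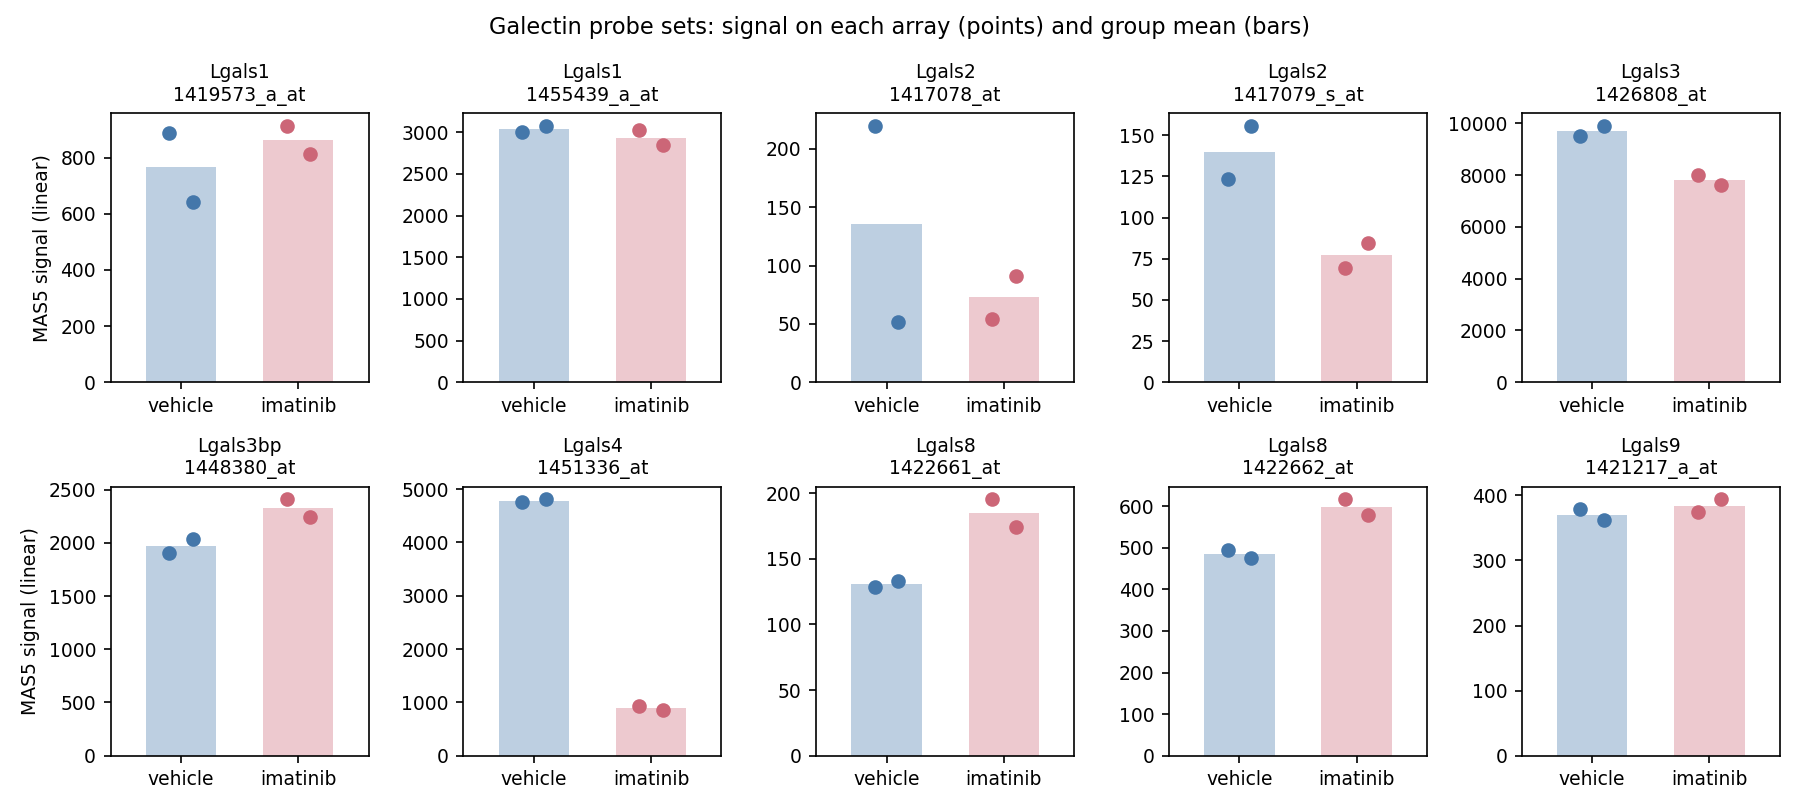
Signal of each galectin probe set (MAS5 signal, linear scale, each panel with its own axis from 0) on the 2 vehicle and the 2 imatinib arrays, with points for arrays and bars for group means. Lgals4 goes from 4754 and 4808 to 937.8 and 848.6, and the groups overlap for both probe sets of Lgals1, the dimmer one of Lgals2 and that of Lgals9.

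Lgals4 encodes galectin-4, a protein with a pair of carbohydrate-binding domains that takes part in apical sorting of glycoproteins in enterocytes. The vehicle arrays read 4754 and 4808, and the imatinib arrays read 937.8 and 848.6. The groups lay far apart, and the arrays within each group differed little. The mean fell from 4781 ± 38.3 to 893.2 ± 63.1 (SD, n = 2), which left 18.7% of the vehicle signal. The log2 difference was -2.38 ± 0.09 (SE, 95% confidence interval -2.58 to -2.18, limma adjusted p = 8.83e-08), the 17th lowest of the 8156 tested genes. It was called lower under every alternative setting tried. Some mouse strains carry a near-identical neighbouring copy, Lgals6, so the identity of this signal is uncertain to that extent.

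Markers of gut epithelium moved the same way on the same arrays. Of 18 epithelial markers tested, 17 were lower and none higher, beside 8.85% lower and 6.74% higher among all genes. The markers had a median log2 difference of -2.05 and a range from -2.89 to -0.95. Their signals summed to 37514 and 37901 for vehicle, against 7605 and 7740 for imatinib. Krt19, a keratin of simple epithelia (-2.89), and Dsp, a desmosomal gene (-2.65), fell most. Cdx1, Cldn4 and Ocln had imatinib means under the filter and were tested through their vehicle signals, and the other 15 were all called lower. Lgals4 fell by 0.38 more on the log2 scale than the mean of these markers. The genes whose values over the 4 arrays were closest to those of Lgals4 were Rhpn2 (distance 0.03 on the log2 scale), the polymeric immunoglobulin receptor gene Pigr (0.11), which transports antibodies across epithelium, and the desmosomal cadherin gene Dsc2 (0.11). Fewer epithelial cells and less Lgals4 RNA per cell cannot be told apart in sorted bulk cells, and the same holds for every gene below.

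Lgals2 encodes galectin-2, a small single-domain lectin, and was dim on all arrays. The brighter of its 2 probe sets read 123.5 and 155.8 with vehicle, against 69.5 and 84.5 with imatinib. Its groups did not overlap, as in 5 of the 7 galectin genes and 56.2% of all tested genes. In 3 of the 7 and 30.1% of all tested genes imatinib was the lower group without overlap. Its log2 difference was -0.65 ± 0.26 (SE, 95% confidence interval -1.22 to -0.09) and missed the threshold (limma adjusted p = 0.12). With the mean of macrophage markers set equal on all arrays, the median over all tested genes was -0.49 and 5158 were called lower. Lgals2 was at -1.12 on that scale and passed as lower (limma adjusted p = 0.0059). The mean of its imatinib arrays, 77.0, lay under the filter of 82.9, so it was tested through its vehicle signals. The other probe set read 219.9 and 51.3 with vehicle, against 54.4 and 90.9 with imatinib. Its groups overlapped, and its difference of -0.49 turned to 0.31 without vehicle replicate 1 and was -1.29 without vehicle replicate 2, where it passed the test (limma adjusted p = 0.043). Its closest genes by the brighter probe set were Atp11a (distance 0.05), Clstn1 (0.09) and Nt5dc3 (0.10), which were all called lower.

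Lgals3 encodes galectin-3, the only chimeric member, which joins 1 lectin domain to a proline- and glycine-rich tail through which it oligomerises. It read 9521 and 9905 with vehicle, against 7992 and 7627 with imatinib. Both imatinib arrays lay below both vehicle arrays. The mean went from 9713 ± 271.6 to 7809 ± 258.4 (SD, n = 2), or 80.4% of the vehicle signal, a log2 difference of -0.31 ± 0.07 (SE, 95% confidence interval -0.48 to -0.15, limma adjusted p = 0.015). The call was lost without vehicle replicate 1 (-0.34, limma adjusted p = 0.056), without vehicle replicate 2 (-0.29, limma adjusted p = 0.096), without the mean-variance trend (limma adjusted p = 0.16) and with array medians set equal (-0.12, limma adjusted p = 0.66). With every probe set as its own row, it was also lost without a filter (limma adjusted p = 0.069) and without imatinib replicate 2 (-0.28). The direction was the same in all of these.

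Of 19 macrophage markers, 18 had a mean signal above the filter in both groups, and of 18 markers of epithelium, a cell type the label does not name, 15 did. Of the 19 macrophage markers tested, 14 were higher and none lower, beside 6.74% higher and 8.85% lower among all genes. The markers had a median log2 difference of 0.44, led by the engulfment receptor gene Mertk (1.16) and the integrin gene Itgam (0.97). The markers with the highest signals, Mpeg1 (0.04), Csf1r (0.12), C1qb (-0.09) and C1qa (0.05), were not called. Itgam read 88.3 and 64.3 with vehicle, against 157.1 and 201.7 with imatinib, so it was tested through its imatinib signals, and its call was lost without vehicle replicate 2 or imatinib replicate 2. Signals of the 19 markers summed to 209903 and 209646 for vehicle, against 258735 and 247742 for imatinib. Relative to the mean of these markers, Lgals3 was lower by 0.78 on the log2 scale (limma adjusted p = 4.15e-05 with that mean set equal on all arrays). That scale averages all 19 markers, and other choices of markers were not tested. On it the median over all tested genes was -0.49 and 5158 of the 8156 were called lower. Epithelium is also known to make galectin-3, and the part of the epithelial transcripts in this difference was not tested. The genes with the closest values over the 4 arrays were Plk3, Wdfy1 and Mrps22, each at a distance of 0.03, and none of these 3 passed the test.

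The promoters of the 2 called genes are shown so that the letters just before their starts can be compared. The 250 bases upstream of the start, from RefSeq on GRCm38.p6, are chr7:28833544-28833793 on the plus strand for Lgals4 and chr14:47373610-47373859 on the plus strand for Lgals3, with matches to any of 6 searched motifs in capitals.
Lgals4: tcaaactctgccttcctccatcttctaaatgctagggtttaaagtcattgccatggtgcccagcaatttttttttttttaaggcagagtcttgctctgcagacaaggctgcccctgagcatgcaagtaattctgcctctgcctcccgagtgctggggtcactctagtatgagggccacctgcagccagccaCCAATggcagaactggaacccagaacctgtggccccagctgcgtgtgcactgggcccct
Lgals3: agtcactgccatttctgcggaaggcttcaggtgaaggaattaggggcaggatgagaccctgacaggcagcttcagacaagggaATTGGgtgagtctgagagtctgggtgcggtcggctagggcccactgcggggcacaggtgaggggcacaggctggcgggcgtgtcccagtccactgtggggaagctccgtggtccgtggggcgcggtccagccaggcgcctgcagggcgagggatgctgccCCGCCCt
The capitals mark a CCAAT box (CCAAT on either strand) in both genes, and in Lgals3 also a GC box (GGGCGG on either strand). The CCAAT letters are found in 33.8% and the GC box letters in 32.7% of 32851 such windows, so neither is rare. GC content was 53.6% for Lgals4 and 66.0% for Lgals3. Neither window held the other motifs, which were also searched on both strands. These were the TATA box, spelled TATAAA, which 12.4% of all windows hold, and the site of the stress-responsive factor AP-1, spelled TGANTCA, which 6.75% of them hold. The other two were the site of the GATA factors, spelled AGATAA, and a sequence known as the half-site of the intestinal and hepatic factor HNF4, spelled CAAAGTC. Among the 6 galectin genes with an entry, only Lgals2 held the HNF4 letters (in 3.84% of all windows) and the GATA letters (9.99%).

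Lgals3bp and Lgals8 were higher on both imatinib arrays without passing the test. Lgals3bp, whose product carries a scavenger receptor domain and binds galectin-3, read 1904 and 2033 with vehicle, against 2409 and 2244 with imatinib. The groups did not overlap. Imatinib was higher without overlap in 2 of the 7 galectin genes and in 26.1% of all tested genes. Its log2 difference was 0.24 ± 0.09 (SE, 95% confidence interval 0.04 to 0.44, limma adjusted p = 0.11). Lgals8 encodes galectin-8, a tandem lectin that marks damaged vesicles for autophagy. Its brighter probe set read 494.1 and 474.4 with vehicle, against 616.7 and 578.4 with imatinib, a log2 difference of 0.29 ± 0.12 (SE, 95% confidence interval 0.02 to 0.55, limma adjusted p = 0.15). The dimmer probe set of Lgals8 lay at 128.5 and 132.8 against 195.2 and 173.9, so that both probe sets were higher with imatinib on every array. With array medians set equal, the median over all tested genes was 0.16 and 1245 were called higher, against 550 on the deposited scale. Lgals3bp (0.43, limma adjusted p = 0.034) and Lgals8 (0.47, limma adjusted p = 0.024) passed as higher there. With the macrophage-marker mean set equal, both turned negative (-0.23 and -0.18) and did not pass. The values closest to those of Lgals3bp belonged to the MAP kinase phosphatase gene Dusp6 (distance 0.01), Chmp2a (0.02) and the NF-kappaB inhibitor gene Nfkbia (0.02). Those closest to Lgals8 belonged to the autophagy gene Atg2b (0.01), Tmem106a (0.02) and Akirin1 (0.03). None of these passed the test.

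Lgals1 and Lgals9 had overlapping groups. Lgals1, which encodes the small homodimeric galectin-1 of stromal and immune cells, read 3007 and 3078 with vehicle, against 3027 and 2842 with imatinib, on its brighter probe set. Its log2 difference was -0.05 ± 0.08 (SE, 95% confidence interval -0.23 to 0.13, limma adjusted p = 0.74), and its sign turned to 0.14 with array medians set equal. With the macrophage-marker mean set equal it was -0.52 and passed as lower (limma adjusted p = 0.0010). The median over all tested genes on that scale was -0.49, and 5158 of 8156 were called lower. The other probe set read 886.9 and 643.2 against 913.0 and 811.6, a difference of 0.18. A pseudogene of Lgals1 is annotated, so RNA of that copy could add to its signal. On the same arrays 7 of 14 fibroblast markers were lower and 1 higher, beside 8.85% lower and 6.74% higher among all genes. Their median was -0.88. Loxl1 (-1.51) and Pcolce (-1.35) fell most, and Mmp2 (0.58) was the one that rose. Pagr1a, Tdrd7 and Chmp4b had the closest values to those of Lgals1, each at a distance of 0.02, and none of these was called.

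Lgals9 encodes galectin-9, a tandem lectin and a ligand of the receptor TIM-3. It read 378.9 and 362.1 with vehicle, against 374.1 and 393.9 with imatinib. The log2 difference was 0.05 ± 0.14 (SE, 95% confidence interval -0.26 to 0.35, limma adjusted p = 0.87). With the macrophage-marker mean set equal it was -0.42 and passed as lower (limma adjusted p = 0.026). The median over all tested genes on that scale was -0.49, and 5158 of 8156 were called lower. Havcr2, the TIM-3 gene, which falls outside the rule for named genes and was chosen after its values were seen, read 1045 and 1034 with vehicle, against 950.4 and 984.8 with imatinib (log2 difference -0.10, limma adjusted p = 0.56). The closest values to those of Lgals9 were those of Npepps (distance 0.01), Fh1 (0.02) and Kbtbd4 (0.02), which were not called.

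**Figure D2:**
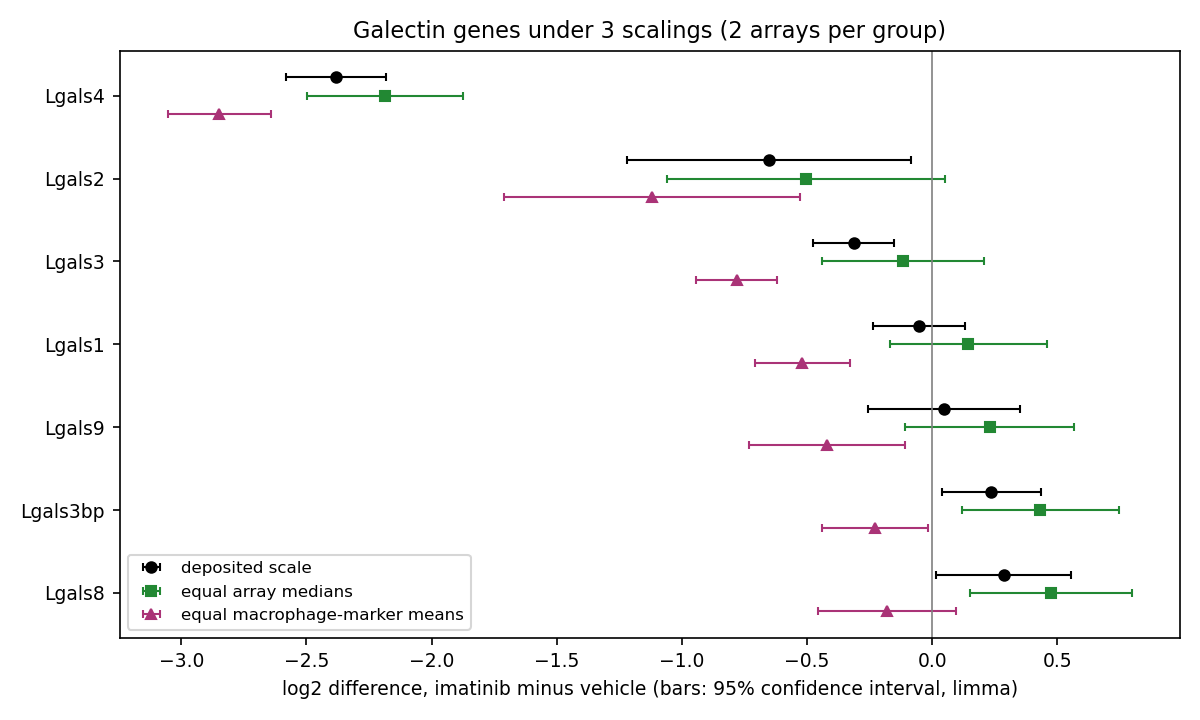
Log2 difference, imatinib minus vehicle, of the 7 galectin genes with 95% confidence intervals from limma (2 arrays per group), on the deposited scale, with array medians set equal and with the mean of the macrophage markers set equal. Lgals4 lies between -2.85 and -2.19 on all 3 scales, while Lgals1, Lgals8, Lgals9 and Lgals3bp lie on different sides of 0.

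The scale of the arrays bears on the smaller differences. Array medians were 152.4 and 141.5 for vehicle, against 122.3 and 133.7 for imatinib, and the median over all probe sets differed by -0.16 on the log2 scale. With medians set equal, the median over tested genes was 0.16 and 69.6% of calls were higher, against 43.2% on the deposited scale. With the macrophage-marker mean set equal, that median was -0.49 and 1.90% of calls were higher. The 3'/5' ratio of the Gapdh control, a measure of RNA quality, ranged from 2.76 to 2.91 for vehicle and from 2.09 to 2.34 for imatinib. That of the beta-actin control was higher, at 3.99 and 3.58 for vehicle, against 3.06 and 2.71 for imatinib. The part of RNA quality in the differences between groups was not tested.

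Of the other galectin-family genes, 3 were on the array. Lgalsl, which encodes a galectin-related protein that lacks sugar binding, read 1031 and 918.6 with vehicle, against 451.0 and 466.5 with imatinib, on its brighter probe set (log2 difference -1.03 ± 0.12, SE, limma adjusted p = 1.61e-04). Its other probe set read 310.9 and 322.1 against 216.4 and 257.7 and did not pass (-0.38). Lgals12, the galectin of fat cells, was dim, with 161.6 and 141.3 against 78.1 and 121.9 on its brighter probe set (-0.49, limma adjusted p = 0.23). The difference was -0.25 without imatinib replicate 1 and -0.07 as the mean of its probe sets. With the macrophage-marker mean set equal it was -0.96 and passed as lower (limma adjusted p = 0.011), where the median over all tested genes was -0.49. The other probe set lay below the filter in the opposite direction, at 13.2 and 47.9 against 55.6 and 34.7. Lgals7, the galectin of stratified epithelium, lay below the filter with signals of 17.0 to 67.2.

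Genes of galectin ligands moved in both directions. Of 29 tested counter-receptors and glycoprotein ligands, 6 were higher and 3 lower, with a median of 0.07, beside 6.74% higher and 8.85% lower among all genes. Among the largest differences, Mertk (1.16) and Itgam (0.97), which are also macrophage markers, rose, while the adhesion molecule gene Ceacam1 (-2.18) and the transferrin receptor gene Tfrc (-1.43) fell. Itgam had a vehicle mean of 76.3, under the filter, and was tested only through its imatinib signals. Of the 28 counter-receptors above the filter in both groups, 5 were higher and 3 lower. Ceacam1 has a close paralog, so its identity is uncertain, and gut epithelium is known to express it. The list's median was 0.26 with array medians set equal and -0.40 with the macrophage-marker mean set equal.

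Of 25 enzymes that build or trim the glycans galectins read, 3 were higher and none lower, with a median of -0.06. The shares over all tested genes were 6.74% higher and 8.85% lower. St6gal1, which adds the alpha-2,6 sialic acid known to block binding of galectin-1, rose by 0.99 ± 0.09 on the log2 scale (SE, limma adjusted p = 3.75e-05). The sialyltransferase gene St3gal4 (0.64) and the galactosyltransferase gene B4galt6 (0.40, or 0.11 on 1 of its other probe sets) also rose. The list's median was 0.12 with array medians set equal and -0.53 with the macrophage-marker mean set equal, where B4galt6 turned to -0.07. The calls of St3gal4 and B4galt6 were lost without vehicle replicate 1 and without either imatinib array.

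Of 22 partners of galectins at damaged vesicles and in autophagy, 4 were higher and 2 lower, with a median of 0.00. Among all tested genes 6.74% were called higher and 8.85% lower. The autophagy adaptor gene Sqstm1 (0.47) and the LC3-family gene Gabarap (0.56) rose, although with the macrophage-marker mean set equal Sqstm1 turned to -0.00071, Gabarap was at 0.09 and the list's median was -0.46. Trim16, a partner of galectin-3 at damaged lysosomes, read 187.6 and 158.1 with vehicle, against 8.93 and 64.1 with imatinib. It was called lower, but it was tested only through its vehicle signals and its imatinib signals lay below the filter, so the size of the difference is not well set (-2.32 to -1.09 on leaving out an array, not called without vehicle replicate 1). The adaptor gene Tax1bp1 fell by 0.68, although another of its probe sets differed by -0.15 and did not pass. The call of Sqstm1 was lost without vehicle replicate 2 and without either imatinib array, and that of Tax1bp1 without vehicle replicate 1 or imatinib replicate 1.

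Markers of other cells that could carry galectins were counted in the same fit, and their part in the galectin values was not tested. These lists are short, and 6.74% of all tested genes were called higher and 8.85% lower. Of 4 smooth muscle markers 1 was lower (Acta2, -0.82), and of 6 markers of GIST and Cajal cells 3 were lower, led by Edn3 (-0.91, with an imatinib mean just under the filter, lost without either vehicle array or imatinib replicate 2) and Kit (-0.64). None of 6 endothelial, 9 T cell and 3 mast cell and eosinophil markers was called (limma). The eosinophil granule gene Prg2 was the only one of these with an unadjusted p under 0.05 (log2 difference 0.83, limma adjusted p = 0.066). It falls outside the rule for named genes and was chosen after its values were seen. Its vehicle mean of 79.9 lay under the filter, so it was tested only through its imatinib signals. Of 6 B cell markers 2 were higher and 1 lower, led by Cd22 (0.84) and Ighm (-0.62). Of 7 dendritic cell markers 3 were higher, led by Cd209a (1.48) and Flt3. Flt3 read 30.8 and 66.2 with vehicle, below the filter, against 131.5 and 152.2 with imatinib, so it was tested only through its imatinib signals, and its call was lost without vehicle replicate 1 or either imatinib array. Of 4 neutrophil markers 1 was higher (Csf3r, 0.70, lost without vehicle replicate 1 or imatinib replicate 1).

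**Figure D3:**
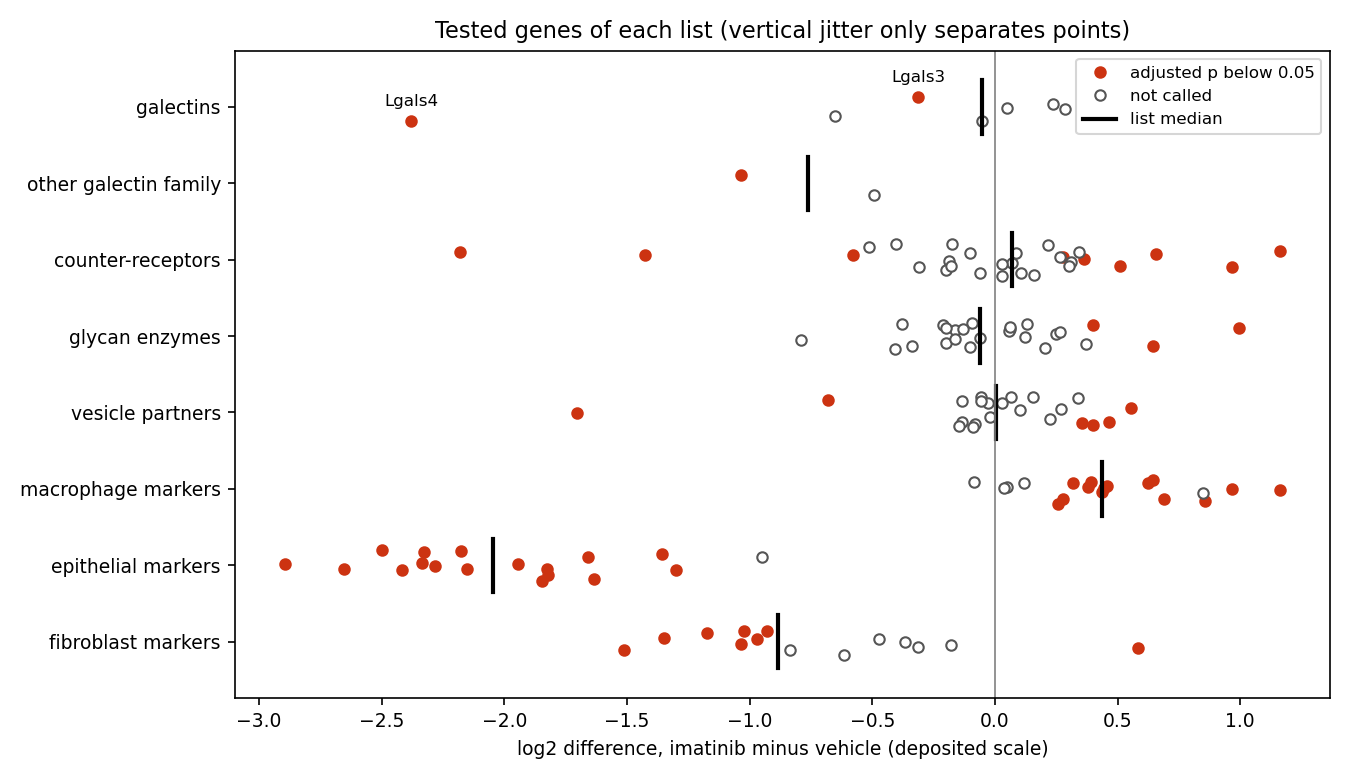
Log2 difference, imatinib minus vehicle, of every tested gene in the galectin lists and in the macrophage, epithelial and fibroblast marker lists, with called genes filled and list medians as vertical bars. Lgals4 at -2.38 lies among the epithelial markers, which have a median of -2.05, and Lgals3 at -0.31 lies outside the range of the macrophage markers.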

How the data were processed

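Per the submitters' processing notes, the authors made the deposited linear signal intensities with Affymetrix Expression Console and MAS5. No version, setting or genome build is given in these sources. MAS5 removes background, which makes dim signals noisy, and sets the trimmed mean of every array to 1 value (500.3 after trimming 2% at each end). Per the labels, labelled cRNA was made with a 3' kit.

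Of 22690 probe sets, 64 controls were left out, 20380 had 1 gene symbol, 691 several and 1555 none in the platform annotation. By gene identifier 20351 of the named ones matched RefSeq, with 0 symbols changed. A gene's brightest probe set was tested if its mean reached the 40th percentile (82.9). The fit was limma 3.58.1 (R 4.3.3), two-sided (lmFit, then eBayes with a variance trend), with a prior of 8.39 and a residual of 2 degrees of freedom, on log2(signal + 32), which understates changes of dim genes. Precision is limited by having 2 arrays per group.

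The genes and lists were chosen with earlier results of these data known. Named are all galectins and family genes on the array, up to 4 called members of each partner list by size, up to 2 of each cell marker list, and the 3 genes at the smallest Euclidean distance from each galectin over log2 values centred on the gene's mean. Alternatives were other pseudocounts, filters, scalings, probe set summaries and priors, leaving out each array, and a block for the replicate number.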

Additional observations from a re-analysis of the deposited data

How the results depend on the processing

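Lgals4 was lower and past the threshold under all 17 alternatives, from -2.85 to -2.19 on the log2 scale, and Lgals3 had the same sign under all of them and was called in 13. With the macrophage-marker mean set equal, Lgals1 (-0.52), Lgals2 (-1.12) and Lgals9 (-0.42) also passed as lower. Galectin genes called lower numbered 2, against 5 on that scale, 1 with array medians set equal (with 2 then higher, Lgals3bp and Lgals8) and 1 without the variance trend. Probe sets gave the same counts, and 1 lower without a filter. Leaving out each array in turn gave 1 to 2 galectin genes and 1 to 2 galectin probe sets, 294 to 461 of all genes higher and 488 to 701 lower, and 11 to 17 genes of the 3 partner lists. The 550 higher and 722 lower of all genes became 1245 and 543 with equal medians, 100 and 5158 on the macrophage-marker scale, 356 and 541 without a filter, and 196 and 521 without the trend. The 18 calls in the partner lists became 47 on the macrophage-marker scale, 11 without a filter and 6 without the trend. The cause of these differences was not tested. With the replicate number as a block, 421 genes were higher and 634 lower and the same 2 galectin genes were called. Deviations of same-numbered arrays correlated at -0.13 over genes, so a block with the numbers crossed was added after seeing the data. It gave 880 higher and 1095 lower genes and 1 galectin gene higher, Lgals3bp. The numbers are not known to pair the arrays. Dim signals near the filter, as for Lgals2, limit what can be called.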
